A study of Rattus norvegicus with 6 samples.

Results

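The suppressors of cytokine signalling (SOCS) were followed in INS-1 cells, an insulin-secreting line derived from a rat insulinoma, by RNA sequencing. The family was taken as the genes whose symbol in the count table is Cish or Socs1 to Socs7, which gave 8 of 21553 genes, each with 1 transcript row. INS-SMA cells (n = 3 libraries) carry the genotype SMA overexpression. They were made with lentivirus, and the expressed gene is that of alpha smooth muscle actin, α-SMA. INS-MOCK cells (n = 3 libraries) are labelled wild type, and the labels do not say whether they received virus. Both groups are the same line at the same stated range of passages, in the same serum-containing medium, with no cytokine named in the culture conditions. The labels do not say how many transduction events or clones each group represents. The comparison asks how the transcripts of these feedback inhibitors differ when the cells express α-SMA.

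SOCS proteins share a central SH2 domain, which binds phosphorylated tyrosines, and a carboxy-terminal SOCS box, which binds elongins B and C and a cullin and so marks bound proteins for ubiquitination. Cish and Socs1 to Socs3 are classical targets of the STAT transcription factors: a cytokine activates a Janus kinase (JAK), the JAK activates a STAT, the STAT raises the SOCS gene, and the SOCS protein then dampens that receptor. Socs4 to Socs7 are less tied to cytokine induction and have been linked to the epidermal growth factor, insulin and KIT receptors. In rodent islets, prolactin and growth hormone are known to raise Cish and Socs2 through STAT5, and inflammatory cytokines are known to raise Socs1 and Socs3.

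The promoters of Cish and Socs1 are shown because they hold letter patterns that STAT and interferon-activated factors are known to bind. RefSeq sequences of the rat build GRCr8, from 250 bases before to 50 bases after the annotated start, were found for 5 of the 8 members, namely Cish, Socs1, Socs3, Socs4 and Socs6. Both strands were searched for 3 patterns: the STAT motif TTCNNNGAA, its variant in which TTC and GAA stand 4 bases apart, and the core of the interferon-stimulated response element (ISRE), which is GAAA, any 2 bases and GAAA. Capitals mark the matches in the windows of Cish (chr8:116850719-116851018, plus strand) and Socs1 (chr10:5389324-5389623, plus strand), written 5′ to 3′:
Cish: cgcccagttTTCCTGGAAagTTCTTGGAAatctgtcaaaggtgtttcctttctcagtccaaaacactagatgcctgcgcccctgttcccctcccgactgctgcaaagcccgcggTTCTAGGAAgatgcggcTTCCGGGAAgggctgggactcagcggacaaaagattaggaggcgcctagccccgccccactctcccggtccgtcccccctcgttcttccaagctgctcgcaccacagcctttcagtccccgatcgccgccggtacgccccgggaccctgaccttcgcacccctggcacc
Socs1: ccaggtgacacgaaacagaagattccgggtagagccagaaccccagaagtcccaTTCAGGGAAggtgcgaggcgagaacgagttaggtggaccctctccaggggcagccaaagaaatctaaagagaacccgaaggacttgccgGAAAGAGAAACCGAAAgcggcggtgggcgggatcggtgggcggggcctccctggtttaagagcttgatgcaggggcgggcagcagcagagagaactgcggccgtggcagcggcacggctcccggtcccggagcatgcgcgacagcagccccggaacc

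The Cish window held 4 matches to TTCNNNGAA, beginning 241, 230, 136 and 119 bases upstream of the start. Of 33465 promoter windows of the same length, 8.87% held at least 1 such match and 2 held at least 4, that of Cish among them. The Socs1 window held 1 match to TTCNNNGAA, 196 bases upstream. It also held 2 matches to the ISRE core that overlap each other, beginning 107 and 101 bases upstream; 3.92% of windows held at least 1 match to this core and 0.266% at least 2. The windows of Socs3, Socs4 and Socs6 held none of the 3 letter patterns. A match describes the letters of this window and is not a measured binding site. A window without a match does not show that the gene lacks such a site, since only these 300 bases were searched. The Socs3 window runs into the protein-coding sequence (atggtcacccac), so it may not cover the promoter of that gene.

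**Figure D1:**
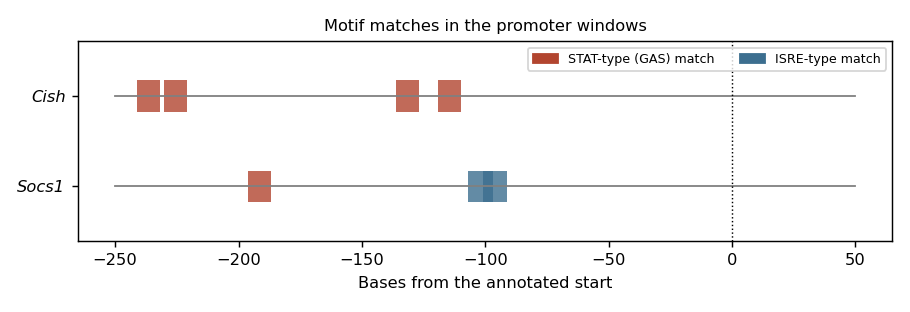
Positions of motif matches in the promoter windows of Cish and Socs1, in bases from the annotated start (dotted line, with upstream to the left). Red boxes are matches to the STAT motif and blue boxes matches to the ISRE core; Cish has 4 STAT matches in 2 pairs, and Socs1 has 1 STAT match and 2 overlapping ISRE matches.

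Libraries held 24719503 to 39608609 counts in INS-SMA and 34471794 to 37466920 in INS-MOCK. The human ACTA2 sequence, the check of the labels, had 941093 to 1141322 counts in INS-SMA libraries and 103 to 167 in INS-MOCK libraries. Of 13363 tested genes, 55.1% were called at 0.05 after Benjamini-Hochberg adjustment (edgeR, quasi-likelihood), with 28.1% higher and 27.0% lower in INS-SMA. The median log2 fold change over them all was 0.033. Genes of the mitochondrial genome took 3.51% to 3.82% of named-gene counts in INS-SMA and 7.30% to 8.15% in INS-MOCK. The 14 beta cell markers in the table summed to 3997 to 5191 CPM (normalised counts, scaled to library size) in INS-SMA and 38852 to 41825 CPM in INS-MOCK, and 10 of the 14 fell. For 11 immune and endothelial markers the sums were 7.48 to 12.5 CPM in INS-SMA and 2.56 to 7.13 CPM in INS-MOCK. Ptprc (CD45), the 1 called among the 6 tested, had 0 counts in INS-MOCK and 31, 34 and 29 in INS-SMA. Cd8a, Ms4a1 and Cdh5 were at 0 in INS-MOCK and had only 0 to 4 counts per INS-SMA library. Cd4 held much of the INS-SMA sum (3.24, 1.70 and 6.30 CPM). Means of Vwf, Cd68 and Kdr were lower in INS-SMA and those of the others higher. For 8 fibroblast markers the sums were 19.9 to 33.4 CPM in INS-SMA and 60.4 to 86.5 CPM in INS-MOCK. That sum was mostly Thy1, at 6.49 to 21.5 CPM in INS-SMA and 44.7 to 72.9 CPM in INS-MOCK; Pdgfra fell too, Col3a1 rose (46, 80 and 54 counts in INS-SMA, 3, 0 and 2 in INS-MOCK), and the other 5 were too low to test. These measures moved with the groups, and their part in the results below was not tested. INS-MOCK replicate 1 stood apart in interferon-response transcripts: Usp18, an interferon-induced protease, was at 47.0 CPM there, against 3.14 and 2.86 CPM in the other INS-MOCK libraries, and Stat2 was at 69.0 CPM there, against 37.6 and 38.0 CPM.

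The SOCS family did not move as a block. Cish and Socs3 fell in INS-SMA, Socs4 and Socs6 rose, and Socs1, Socs2, Socs5 and Socs7 did not pass the test. All 8 members passed the filter on low counts, so 4 of 8 were called, beside 55.1% of all tested genes. The groups of libraries did not overlap for the same 4 members, beside 65.3% of all tested genes. The median log2 fold change of the 8 members was -0.041. Both shares lie near those of all genes and are no result about the family.

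Cish, which encodes the cytokine-inducible SH2 protein that restrains STAT5 signalling, changed most. It had 63.2, 67.3 and 61.8 CPM in the INS-SMA libraries, against 348, 328 and 347 CPM in the INS-MOCK libraries. Every INS-SMA library lay far below every INS-MOCK library, and within each group the libraries lay close together. Its raw counts were 1052, 1467 and 1589 in INS-SMA and 8429, 7328 and 8125 in INS-MOCK. Cish was thus 5.32-fold lower in INS-SMA (95% interval 4.89 to 5.80; log2 fold change -2.41, SE 0.049, edgeR adjusted p = 4.09e-06). Of the 13363 tested genes, 280 had a log2 fold change below that of Cish. The call held in all 14 alternative fits, with log2 fold changes of -2.45 to -2.32. In bulk RNA, fewer cells that express a gene and less RNA per cell cannot be told apart. The gene lies on chromosome 8, plus strand, 116054465 to 116060723, in the coordinates of the deposited table, for which rn6 is the only rat build named.

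Socs3, whose protein blocks JAKs bound to receptors of the interleukin 6 family, fell by less. It had 5.53, 4.96 and 4.28 CPM in INS-SMA libraries and 7.19, 8.43 and 8.63 CPM in INS-MOCK libraries. The highest INS-SMA library stayed below the lowest INS-MOCK library. The fall was 1.64-fold (95% interval 1.21 to 2.23; log2 fold change -0.72, SE 0.18, edgeR adjusted p = 0.0169). The call depended on single libraries: without INS-MOCK replicate 2 or replicate 3 the edgeR adjusted p was 0.0601 or 0.0609, and the 14 alternatives spanned 0.000823 to 0.072. The gene model of Socs3 spans 863 bases (chromosome 10, minus strand, 106975178 to 106976040), and the gene had 92 to 202 counts per library. How reads were counted is not given, so reads of the same transcript outside that model may be missing from this value.

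Socs1, the inhibitor of interferon receptor signalling, and Socs2, which limits growth hormone signalling, were low. Socs1 had 16, 8 and 28 counts in INS-SMA libraries (0.961, 0.367 and 1.09 CPM) and 41, 24 and 14 counts in INS-MOCK libraries (1.69, 1.08 and 0.598 CPM). The groups overlapped, and the highest value was in INS-MOCK replicate 1, the library with more Usp18. The log2 fold change of Socs1 was -0.48 (95% interval -1.88 to 0.93, edgeR adjusted p = 0.519). It was -0.048 without INS-MOCK replicate 1. The interval of Socs1 reaches from a 3.69-fold fall to a 1.91-fold rise. A change of any size within that interval is compatible with these libraries. They held 8 to 41 counts and spread within a group by more than counting error. The 95% Poisson intervals of INS-MOCK replicate 1 (29.4 to 55.6 counts) and replicate 3 (7.65 to 23.5 counts) do not overlap. The gene model of Socs1 is 1136 bases long (chromosome 10, plus strand, 4957326 to 4958461).

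Socs2 (chromosome 7, minus strand, 36495480 to 36499784) had 2.52, 1.28 and 1.71 CPM in INS-SMA and 2.68, 1.21 and 2.44 CPM in INS-MOCK. The groups overlapped across nearly their whole range. Its log2 fold change was -0.20 (95% interval -1.25 to 0.84, edgeR adjusted p = 0.719), from 27 to 65 counts per library. Leaving out INS-MOCK replicate 1 turned the sign (0.018), and leaving out INS-SMA replicate 2 brought the value to 0.00033.

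**Figure D2:**
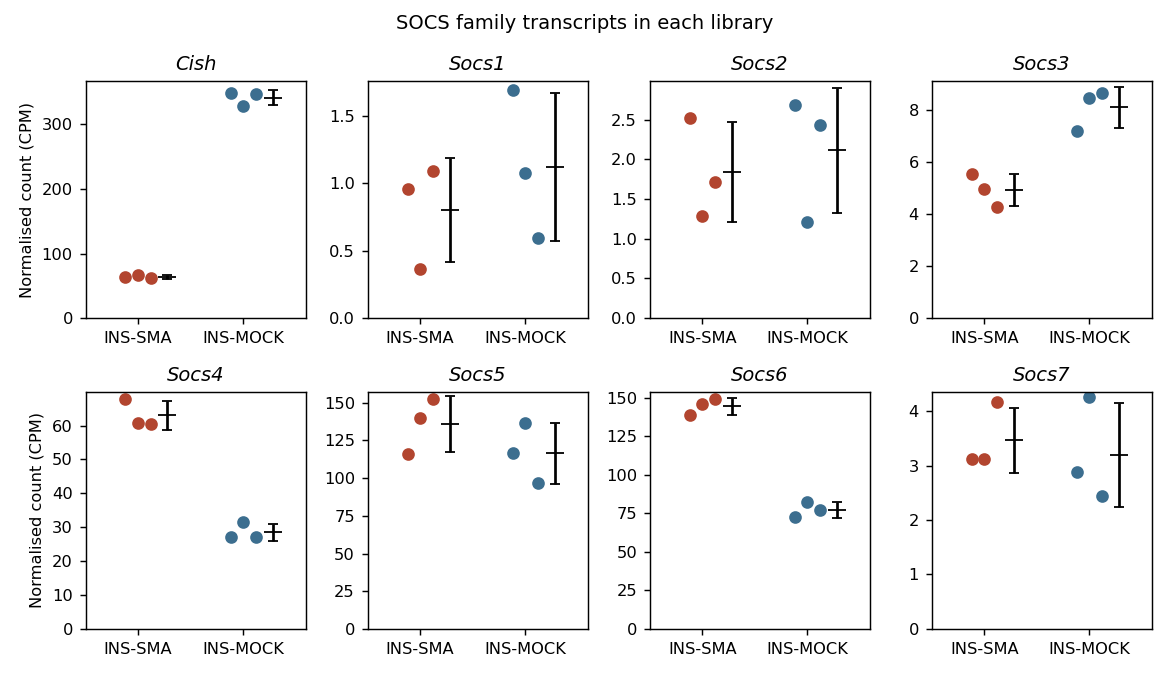
Normalised counts (CPM, linear axes from 0) of the 8 SOCS family genes, with INS-SMA at the left and INS-MOCK at the right of each panel. Points are libraries, and the black mark and bar beside them are the mean and SD of 3; Cish and Socs3 lie lower and Socs4 and Socs6 higher in all 3 INS-SMA libraries, and the groups overlap in the other panels.

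Socs4, which has been linked to degradation of the epidermal growth factor receptor, rose. It had 67.9, 60.8 and 60.4 CPM in INS-SMA libraries and 27.1, 31.5 and 27.0 CPM in INS-MOCK libraries. All INS-SMA libraries were above all INS-MOCK libraries. The rise was 2.21-fold (95% interval 1.88 to 2.60; log2 fold change 1.14, SE 0.093, edgeR adjusted p = 0.00021). The gene lies on chromosome 15, plus strand, 24056383 to 24070857.

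Socs6, which binds KIT and insulin receptor substrates, rose as well. It had 138, 146 and 149 CPM in INS-SMA libraries and 72.3, 82.2 and 77.0 CPM in INS-MOCK libraries, with no overlap. The rise was 1.87-fold (95% interval 1.68 to 2.08; log2 fold change 0.90, SE 0.061, edgeR adjusted p = 0.000102). The gene lies on chromosome 18, minus strand, 85962729 to 85980833. The calls held in all 14 alternative fits, with log2 fold changes of 1.09 to 1.24 for Socs4 and 0.86 to 1.00 for Socs6.

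Socs5 and Socs7 complete the family. Socs5, a paralogue of Socs4, had 116, 140 and 152 CPM in INS-SMA and 117, 137 and 96.5 CPM in INS-MOCK. The lowest INS-SMA library fell among the INS-MOCK values, and the log2 fold change was 0.22 (95% interval -0.18 to 0.62, edgeR adjusted p = 0.298). Its interval reaches up to a 1.54-fold rise, and the lower bound for Socs4 was 1.88-fold. Socs7, a paralogue of Socs6, had 3.12, 3.12 and 4.16 CPM in INS-SMA and 2.89, 4.26 and 2.44 CPM in INS-MOCK. The groups overlapped, with a log2 fold change of 0.12 (95% interval -0.60 to 0.84, edgeR adjusted p = 0.758), and the sign turned when replicate 3 of INS-SMA (-0.032) or of INS-MOCK (-0.042) was left out. Socs5 lies on chromosome 6, plus strand, 10674371 to 10704977, and Socs7 on chromosome 10, plus strand, 85301875 to 85330397. No other named gene of the table overlaps the span of any member. Rows that name no gene have no coordinates and could not be checked.

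Summed over the 8 members, normalised counts were 398, 423 and 435 CPM in INS-SMA and 579, 594 and 562 CPM in INS-MOCK. Without Cish, the other 7 summed to 334, 356 and 373 CPM in INS-SMA and 230, 265 and 215 CPM in INS-MOCK. The order of the groups therefore turned with that 1 gene. By exact permutation of the libraries, two-sided, p = 0.1 for each difference, the lowest value that 3 against 3 allows. The member left out is the 1 that changed most in these same data, and the sums are not scaled for transcript length. They describe these libraries and are no result about the family.

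**Figure D3:**
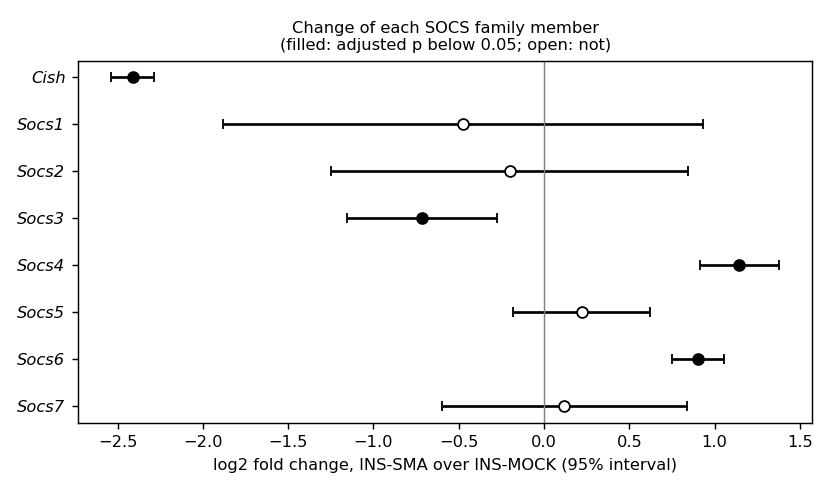
Log2 fold change of each SOCS family gene, INS-SMA over INS-MOCK, with its 95% interval from the edgeR fit over 3 libraries a group. Filled points passed an adjusted p of 0.05 and open points did not; Cish lies at -2.41, Socs3 at -0.72, Socs6 at 0.90 and Socs4 at 1.14, and the intervals of the other 4 cross 0.

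Among the JAK kinases and STAT factors that act upstream of SOCS genes, 4 of 10 tested genes rose and 1 fell, beside 28.1% and 27.0% of all tested genes. Their median log2 fold change was 0.38. Jak1 and Tyk2, both among the 10, differed sharply between replicates and did not pass. Jak1 had 1027, 1331 and 0 counts in INS-MOCK libraries and 0, 1092 and 417 in INS-SMA libraries. Tyk2 had 40, 657 and 480 counts in INS-MOCK and 108, 168 and 266 in INS-SMA. The cause was not tested. Stat2, a partner in the interferon-activated ISGF3 complex, was at 685 ± 5.94 CPM in INS-SMA and 48.2 ± 18.0 CPM in INS-MOCK (SD, n = 3 each), a log2 fold change of 3.83 (SE 0.28). Jak2, the kinase of the growth hormone and prolactin receptors, was at 367 ± 12.3 CPM in INS-SMA and 135 ± 5.68 CPM in INS-MOCK (1.44), and Stat6 rose by 0.70 (edgeR adjusted p = 0.000547; alternatives gave 4.59e-21 to 0.254, the highest from its most abundant transcript row in place of the sum over rows, where the call was lost). Stat5a, which with Stat5b relays prolactin and growth hormone signals, was the 1 that fell. It had 10.8, 14.4 and 13.8 CPM in INS-SMA libraries and 20.5, 25.2 and 21.5 CPM in INS-MOCK libraries, without overlap (log2 fold change -0.79, SE 0.16, edgeR adjusted p = 0.00768). Stat5b had a log2 fold change of 0.064 (95% interval -0.069 to 0.20), with 83.3, 86.4 and 81.7 CPM in INS-SMA and 83.4, 75.8 and 81.4 CPM in INS-MOCK. Stat3, which relays interleukin 6 signals and is known to raise Socs3, had a log2 fold change of 0.055 (95% interval -0.043 to 0.15) and did not pass the test. Stat3 passed without normalization factors (0.15, edgeR adjusted p = 0.0144) and with DESeq2 (adjusted p = 0.0434), in a range of alternatives from 0.0144 to 0.569.

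Ligands that can induce SOCS genes were detected in INS-SMA. Of the 17 with a row in the count table, 6 passed the filter on low values. Of these, Ifnb1, Ifnl1, Ifnl3 and Tnf had 0 counts in all INS-MOCK libraries and so passed it through INS-SMA alone; no count over the list is read. Ifnb1, which encodes interferon beta, had 156, 167 and 258 counts in INS-SMA libraries, at least 70.0-fold higher than a floor of 3 counts per INS-MOCK library. The interferon lambda gene Ifnl1 lay at least 431-fold higher by the same measure, Ifnl3 at least 352-fold higher and Tnf at least 42.7-fold higher. Lif (2.57) and Clcf1 (0.89), ligands of the interleukin 6 family, did not pass the test. The log2 fold change of Socs1 was -0.48, and its interval included no change, a 3.69-fold fall and a 1.91-fold rise. Whether these ligands acted on Socs1 was not tested.

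Of 25 receptors and adaptors with a row, 19 were tested; 4 rose and 3 fell, shares below the 28.1% and 27.0% of all tested genes. Their median log2 fold change was 0.046. Ifngr1, the ligand-binding chain of the interferon gamma receptor, was at 168 ± 6.15 CPM in INS-SMA and 83.2 ± 0.757 CPM in INS-MOCK (log2 fold change 1.02). Its partner Ifngr2 (0.29), the insulin receptor substrate Irs1 (0.70) and Lifr (0.59) rose as well. For Lifr the edgeR adjusted p = 0.041; its call was lost when replicate 1 or 2 of either group was left out (0.0933 to 0.116), as it was with no filter (0.0612). Irs2, at 535 ± 16.3 CPM in INS-SMA and 974 ± 21.6 CPM in INS-MOCK, fell (-0.86), as did both chains of the interferon lambda receptor, Ifnlr1 (-0.82) and Il10rb (-0.56; edgeR adjusted p = 0.242 in its most abundant row). The prolactin receptor gene Prlr had 50.5, 138 and 103 CPM in INS-SMA libraries and 137, 293 and 287 CPM in INS-MOCK libraries. Its groups overlapped through INS-MOCK replicate 1, and it did not pass (log2 fold change -1.30, 95% interval -2.46 to -0.14, edgeR adjusted p = 0.0598). Prlr passed in 4 of 14 alternatives, among them without that library (edgeR adjusted p = 0.0332), with DESeq2 (-1.28, adjusted p = 0.024) and in its most abundant row (-2.69, edgeR adjusted p = 0.019), and its alternatives spanned 0.00293 to 0.144. The growth hormone receptor gene Ghr had 117, 142 and 186 CPM in INS-SMA and 163, 164 and 159 CPM in INS-MOCK (log2 fold change -0.13, edgeR adjusted p = 0.558). Without INS-SMA replicate 3, its highest library, the log2 fold change of Ghr was -0.33 and its edgeR adjusted p 0.04, where its alternatives spanned 0.04 to 0.93. Without INS-SMA replicate 1 the sign of Ghr turned (0.016).

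Of the 10 tested partners that turn a SOCS box into a ubiquitin ligase, 5 fell and 1 rose, beside 27.0% and 28.1% of all genes, and the median log2 fold change was -0.81. Elob, one of the elongins that hold the SOCS box, was at 41.7 ± 2.23 CPM in INS-SMA and 87.0 ± 1.69 CPM in INS-MOCK (log2 fold change -1.06, SE 0.057). Eloc, the other, was at 73.3 ± 4.37 CPM in INS-SMA and 138 ± 5.02 CPM in INS-MOCK (-0.91, SE 0.058). Nedd8, the modifier that activates cullins, was at 25.3 ± 2.83 CPM in INS-SMA and 60.0 ± 4.51 CPM in INS-MOCK (-1.25). The RING protein gene Rbx1 (-1.26) and the NEDD8-conjugating enzyme gene Ube2f (-3.35) fell too, and Nae1, a subunit of the NEDD8-activating enzyme, rose by 0.60 (0.027 in its most abundant row, where the call was lost). Rnf7, the RING partner of cullin 5, had a log2 fold change of -0.19 and did not pass. The cullin gene Cul2 did not pass either (0.0086), and cullin 5 itself was not among the 10.

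Other proteins with a SOCS box changed in both directions. Of 25 with a row, 19 were tested; 7 rose and 3 fell, beside 28.1% and 27.0% of all tested genes, with a median log2 fold change of 0.48. Rab40c, a small GTPase with a SOCS box, was at 119 ± 4.51 CPM in INS-SMA and 34.6 ± 0.695 CPM in INS-MOCK (log2 fold change 1.79, SE 0.048). Asb3 (0.88), Wsb1 (1.64), Spsb1 (2.25), Spsb2 (2.65) and the von Hippel-Lindau gene Vhl (0.31) rose as well. Asb5 had 0 counts in INS-MOCK and 57, 85 and 14 counts in INS-SMA, at least 20.4-fold higher than the floor. It passed the filter on low counts through INS-SMA alone. The count of 7 includes it and is not read against the 28.1%. The edgeR adjusted p of Asb5, 0.0154, was 0.0549 without INS-SMA replicate 1. Spsb4 fell (-1.35), as did Wsb2 (-2.89) and Asb9 (-2.08). Wsb2 spread widely in INS-MOCK (158, 154 and 26.3 CPM), and Asb9 had 15, 12 and 18 counts in INS-MOCK and 5, 2 and 2 in INS-SMA. Some list genes differed sharply between replicates. Asb6, which did not pass, had 3, 4 and 830 counts in INS-MOCK and 3, 12 and 1905 in INS-SMA. The cause was not tested. Wsb2 lost its call without INS-SMA replicate 1 or 2 (edgeR adjusted p = 0.0562 and 0.0576). Asb9 lost it without any library other than INS-SMA replicate 1 (0.0555 to 0.0814), and without that library its log2 fold change was -2.85.

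Of 14 tested genes listed as other brakes on JAK and STAT proteins, 5 rose and 1 fell, beside 28.1% and 27.0% of all tested genes. Their median log2 fold change was -0.016. Ptpn2, a phosphatase that removes phosphate from JAKs and STAT factors, had 51.1, 57.3 and 42.8 CPM in INS-SMA libraries and 7.27, 11.5 and 5.94 CPM in INS-MOCK libraries (log2 fold change 2.61, SE 0.29, edgeR adjusted p = 0.000676). Pias4, a SUMO ligase that inhibits STAT factors, was at 65.9 ± 5.27 CPM in INS-SMA and 34.6 ± 3.06 CPM in INS-MOCK (0.93). Usp18, which also restrains the type I interferon receptor, was at 830 ± 45.1 CPM in INS-SMA and 17.7 ± 25.4 CPM in INS-MOCK. This gave Usp18 a log2 fold change of 5.55, which became 8.11 once INS-MOCK replicate 1 was left out. Ptprc, a phosphatase of JAKs, had 0 counts in INS-MOCK and was at least 11.8-fold higher than the floor. It passed the filter on low counts through INS-SMA alone. The count of 5 includes it and is not read against the 28.1%. Stam2, which is on the list but is not an established brake on these proteins, rose by 0.32 and is also in the count of 5. Ptpn11 (SHP2) fell by 0.16 on the log2 scale. Its call was lost without INS-SMA replicate 1 or 2 (edgeR adjusted p = 0.0539 and 0.0627), without normalization factors (0.159) and in its most abundant row (0.143). Ptpn6 had 4, 10 and 118 counts in INS-SMA and 294, 551 and 390 in INS-MOCK, without overlap. It did not pass (log2 fold change -3.32, edgeR adjusted p = 0.0556). Ptpn1 (-3.06), Pias1 (-1.12) and Dusp3 (0.84) did not pass either, and their groups overlapped. DESeq2 called 5 genes of this list lower.

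**Figure D4:**
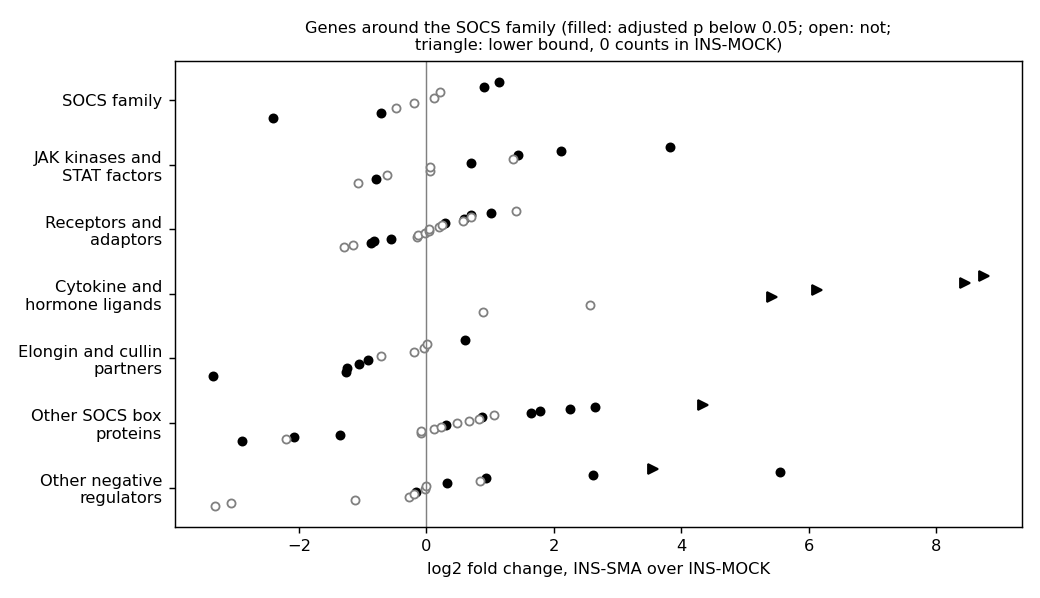
Log2 fold changes, INS-SMA over INS-MOCK, of tested genes of the SOCS family and 6 lists around it; each point is a gene, filled where the edgeR adjusted p was below 0.05. Triangles are lower bounds for genes with 0 counts in INS-MOCK, which entered through INS-SMA alone. Of 10 elongin and cullin partners 5 fell, beside 27.0% of all tested genes, and Cish lies at -2.41.

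The genes most like Cish in pattern were sought among 9354 named genes with a mean of at least 5 CPM, by Pearson's r of log2 CPM over the 6 libraries. Hmg1l1, Slco4a1 and Hyou1 came closest, each with r = 0.9998. Hyou1, a chaperone of the endoplasmic reticulum, was at 79.1 ± 2.37 CPM in INS-SMA and 440 ± 14.6 CPM in INS-MOCK, and Slco4a1, an organic anion transporter, at 8.19 ± 0.416 CPM in INS-SMA and 34.7 ± 0.578 CPM in INS-MOCK. Hmg1l1 was at 6.14 ± 0.208 CPM in INS-SMA and 21.4 ± 0.311 CPM in INS-MOCK. In all, 923 of the 9354 genes had r above 0.99, since any gene that is low in every INS-SMA library and tight within groups scores high.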

How the data were processed

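RNA from 6 INS-1 samples was sequenced, and the authors deposited their raw counts of each transcript in each library. The submitters' processing notes name the tools HISAT2, HISAT and DESeq2 and the builds hg19 and rn6, without roles. How reads were counted, strand and annotation: not given in the sources used here. Of 101905 rows, 66301 assembled transcripts name no gene. They held 32.7% to 36.7% of a library's counts and stayed out of library sizes and tests, so reads of a member in such a row are missing.

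Counts were summed per gene, filtered with filterByExpr, normalised with TMM and compared with edgeR 4.0.16 (glmQLFit, glmQLFTest, R 4.3.3), group being the only term, with Benjamini-Hochberg adjustment over 13363 genes. CPM are on TMM-scaled library sizes. SE is the log2 fold change divided by the root of F. A floor is 3 counts per library. The code was tested on simulated counts. No library was a copy of another (chi-square over degrees of freedom 46.8 to 61.0 between replicates). The series calls them biological replicates; separate cultures are not described, so p-values measure the spread between these libraries. Intervals in brackets come from the edgeR fit, and floors cover counting error only.

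The members and lists were chosen with earlier results of these data known. The 8 members, the 3 genes of each list with the smallest adjusted p, called list genes at 0 in a group, and the 3 genes most like the member with the smallest adjusted p were named by rule; 1 of them is not reported here. Other genes were named after their values were seen. Levels of different members were not compared, since the table gives no transcript lengths. Alternatives were upper-quartile or no factors, DESeq2 1.42.0, no filter (at least 1 count), the most abundant row per gene, unnamed rows in library sizes, human ACTA2 left out, a replicate block, and each library left out. Motifs were sought in RefSeq windows of GRCr8.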

Additional observations from a re-analysis of the deposited data

How the results depend on the processing

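Cish, Socs4 and Socs6 kept their direction and their call under all 14 alternatives, and Socs1, Socs2, Socs5 and Socs7 passed under none of them. Without single libraries the log2 fold change of Socs3 was -0.81 to -0.62, that of Socs2 -0.49 to 0.018, that of Socs7 -0.042 to 0.38 and that of Ghr -0.33 to 0.016. The same fits called 1 to 2 SOCS members lower, 1 to 2 JAK and STAT genes lower, 3 to 5 receptors lower, 1 to 3 other SOCS box genes lower and 0 to 3 other negative regulators lower, where all libraries gave 2, 1, 3, 3 and 1. That last count was 2 with upper-quartile factors, 0 without factors, 5 with DESeq2, 0 in the most abundant rows and 2 with unnamed rows in library sizes. With no filter 7 ligands rose in place of 4. As above, no count over that list is read, since genes at 0 in INS-MOCK enter it through INS-SMA alone. In the most abundant rows 0 elongin and cullin partners rose in place of 1. Where edgeR called 0, an unadjusted p below 0.05 counted 1 negative regulator without factors and 1 in the most abundant rows, 4 under the replicate block and 0 elongin and cullin partners. The causes were not tested.

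The replicate numbers do not pair the libraries. Deviations of same-numbered libraries correlated at -0.028, -0.013 and -0.026, and no library correlated best with its own number. With the replicate block, 6294 genes were called in place of 7359, Socs3 stood at -0.72 with an edgeR adjusted p of 0.072, and 1 SOCS member, 1 other SOCS box gene and 0 other negative regulators were called lower and 3 such regulators higher in place of 5. Lifr, Asb9, Wsb2, Ptpn11, Ptprc and Stam2 missed the threshold under it (edgeR adjusted p = 0.0526 to 0.0992), and Prlr passed (0.00293). Some planned steps gave no value: unnamed rows have no coordinates to join them to a member, and there are no transcript lengths for shares within the family. Socs1, Socs2 and Socs7 had 8 to 107 counts per library, and depth and the spread between libraries both enter their intervals.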
